A study of Homo sapiens with 12 samples.

Results

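The messenger RNA of 8 DNA mismatch repair genes was followed in 697 and KOPN-8, 2 cell lines of B-lineage acute lymphoblastic leukaemia. The genes are the MutS genes MSH3 and MSH6, the MutL genes MLH3, PMS1 and PMS2, the exonuclease gene EXO1, and RFC1 and LIG1 of the resynthesis step. They were taken by gene symbol from a list of 8 names. All 8 were found among the 59611 symbols of the table of read counts, and all 8 were among the 15218 genes left by a filter on low counts. The 12 libraries, stranded and selected for poly-A RNA, fall into 4 groups of 3. Edited 697 is clone BM_B, which received a guide RNA against SETD2 and is labelled heterozygous for a SETD2 knockout; control 697 received the empty guide vector and is labelled SETD2 wild type. Edited KOPN-8 is clone BA, which also received a guide RNA against SETD2 and has the same genotype label as the edited 697 clone. Control KOPN-8 received the empty guide vector. No group was given a drug, and each edited group comes from 1 clone, so that a difference between edited and control cells cannot be told apart from other differences between that clone and its control.

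Mismatch repair removes base mismatches and small loops left behind by DNA polymerases. A MutS heterodimer recognises the mismatch: the one that holds MSH6 binds base mismatches and short loops, and the one that holds MSH3 prefers longer loops. A MutL heterodimer is then recruited, of which the form with PMS2 does most of the repair and cuts the new strand, while the forms with MLH3 and PMS1 have smaller or less certain roles in repair and the MLH3 form is known for crossovers in meiosis. EXO1 degrades the nicked strand, DNA polymerase fills the gap on a sliding clamp that a loader containing RFC1 places on DNA, and LIG1 seals the nick. MSH6 carries a PWWP domain that binds trimethylated lysine 36 of histone H3, the mark that SETD2 writes, and in leukaemia the pathway is known for mediating the response to thiopurines.

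The start regions of MSH3, RFC1, LIG1, MSH6 and MLH3 are shown because MSH3, RFC1 and MSH6 were the genes that passed the test in edited 697, because MLH3 had the largest differences in KOPN-8, and because LIG1 holds both E2F-type motifs. Each sequence runs from 250 bases before to 50 bases after the gene's first listed start, from RefSeq on GRCh38.p14. All 8 genes were matched in that table. Capitals mark GGCGCGAA and TTTCCCGC, which resemble binding sites of E2F factors, regulators of S-phase genes; both strands were searched.
MSH3: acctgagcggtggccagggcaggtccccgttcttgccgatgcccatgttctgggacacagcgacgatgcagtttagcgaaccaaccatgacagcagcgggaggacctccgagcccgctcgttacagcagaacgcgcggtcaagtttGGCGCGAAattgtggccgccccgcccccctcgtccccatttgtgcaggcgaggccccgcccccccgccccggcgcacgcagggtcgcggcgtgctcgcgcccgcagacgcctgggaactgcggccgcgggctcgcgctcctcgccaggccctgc
RFC1: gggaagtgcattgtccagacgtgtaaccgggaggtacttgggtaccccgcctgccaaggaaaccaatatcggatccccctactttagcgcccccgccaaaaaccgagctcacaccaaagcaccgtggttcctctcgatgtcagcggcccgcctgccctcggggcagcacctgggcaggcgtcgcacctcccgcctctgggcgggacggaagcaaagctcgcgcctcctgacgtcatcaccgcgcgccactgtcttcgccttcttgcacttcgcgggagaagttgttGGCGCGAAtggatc
LIG1: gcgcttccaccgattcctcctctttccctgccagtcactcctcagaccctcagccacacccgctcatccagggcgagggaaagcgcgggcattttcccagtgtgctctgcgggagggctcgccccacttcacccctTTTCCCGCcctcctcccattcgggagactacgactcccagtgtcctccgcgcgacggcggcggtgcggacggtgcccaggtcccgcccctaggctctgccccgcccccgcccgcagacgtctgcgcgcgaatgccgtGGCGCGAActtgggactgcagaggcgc
MSH6: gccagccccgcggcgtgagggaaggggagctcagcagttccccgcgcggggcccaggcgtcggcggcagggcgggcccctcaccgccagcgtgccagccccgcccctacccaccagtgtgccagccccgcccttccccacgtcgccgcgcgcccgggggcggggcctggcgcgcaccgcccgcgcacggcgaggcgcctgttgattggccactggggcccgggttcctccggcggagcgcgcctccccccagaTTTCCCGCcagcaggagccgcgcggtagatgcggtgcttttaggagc
MLH3: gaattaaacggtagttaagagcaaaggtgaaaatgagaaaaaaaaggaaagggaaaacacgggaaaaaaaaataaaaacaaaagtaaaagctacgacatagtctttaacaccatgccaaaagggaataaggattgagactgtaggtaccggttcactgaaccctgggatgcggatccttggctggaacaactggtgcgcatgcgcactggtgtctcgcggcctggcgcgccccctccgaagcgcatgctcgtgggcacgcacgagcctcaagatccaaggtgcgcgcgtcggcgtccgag

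The MSH3 sequence is chr5:80654402-80654701 on the plus strand and the RFC1 sequence is chr4:39366313-39366612 on the minus strand. The LIG1 sequence is chr19:48170295-48170594 on the minus strand, the MSH6 sequence chr2:47782895-47783194 on the plus strand and the MLH3 sequence chr14:75051418-75051717 on the minus strand. GGCGCGAA was found in 3 of the 8 start regions (MSH3, RFC1 and LIG1), against 1.02% of the first-listed windows of 27305 genes. TTTCCCGC was found in 2 (MSH6 and LIG1), against 1.66% of all windows. In LIG1 it overlaps a match of the GC box. The motifs were chosen after the sequences had been seen, so these shares are a description. No other variant of the E2F-type motifs was counted, and the EXO1 window, which is not shown, holds the similar TTTCGCGC. The GC box GGGCGG was present in 7 of the 8 windows and absent from the MLH3 window alone, while 44.6% of all windows hold it. The CCAAT box CCAAT was found in 4 of the 8 windows (MSH6, PMS1, PMS2 and RFC1), against 35.7% of all windows. The MLH3 window was also the one with the lowest GC content of the 8, at 51.0%, against 78.0% for MSH6 and a median of 58.3% over all genes.

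Library totals ran from 10378769 to 18278662 counts. No 2 libraries held identical counts. All 7 B-lineage markers checked had at least 1 CPM (the read count per library size on the usual CPM scale, with library sizes scaled by TMM) in every group. Of 5 T-cell markers, CD7 alone reached 1 CPM, in both KOPN-8 groups, and CD3D had 0 counts in every library; the summed level of the 5 was 11.98 to 15.4 CPM in edited KOPN-8 against 24.4 to 28.3 CPM in control KOPN-8, without overlap. The summed level of 4 myeloid markers was 2.72 to 3.44 CPM in edited KOPN-8 against 0.380 to 1.05 CPM in control KOPN-8, and that of the 7 B-lineage markers was 3048 to 3103 CPM in edited KOPN-8 against 2660 to 2834 CPM in control KOPN-8, both without overlap. The part of these shifts in the KOPN-8 results was not tested. In 697 the B-lineage sum was 2067 to 2397 CPM in edited cells against 2076 to 2384 CPM in controls, and the myeloid sum 0.883 to 1.75 CPM in edited cells against 1.70 to 2.18 CPM in controls, both with overlap. SETD2 mRNA, at 219 ± 17.2 CPM (SD, n = 3) in edited 697 against 161 ± 6.96 CPM in control 697, and at 158 ± 6.05 CPM in edited KOPN-8 against 169 ± 9.23 CPM in control KOPN-8, rose in edited 697 (log2 fold change 0.44, SE 0.0692; edgeR adjusted p = 0.000103) and did not pass the test in KOPN-8 (-0.10, adjusted p = 0.309). A transcript with a small edit can still be counted, so the mRNA level is no check of the labelled genotype.

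The 8 genes covered a wide range of levels. Scaled to the length of the annotated exons, MSH6 had the highest level in all 4 groups, followed by RFC1, LIG1, EXO1, PMS1, MSH3, PMS2 and MLH3 in that order in every group. In edited 697 the level of MSH6 was 170 ± 9.51 CPM per kb of exon (SD, n = 3), that of MLH3 0.320 ± 0.0125 CPM per kb, and RFC1 had a mean of 24.9 CPM per kb. In control KOPN-8 MSH6 had 60.1 ± 0.624, MLH3 1.94 ± 0.0690 and RFC1 22.1 ± 0.382 CPM per kb. MSH6 ranked 52 in edited 697, 64 in control 697, 210 in edited KOPN-8 and 167 in control KOPN-8 among the 15218 genes by mean CPM.

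**Figure D1:**
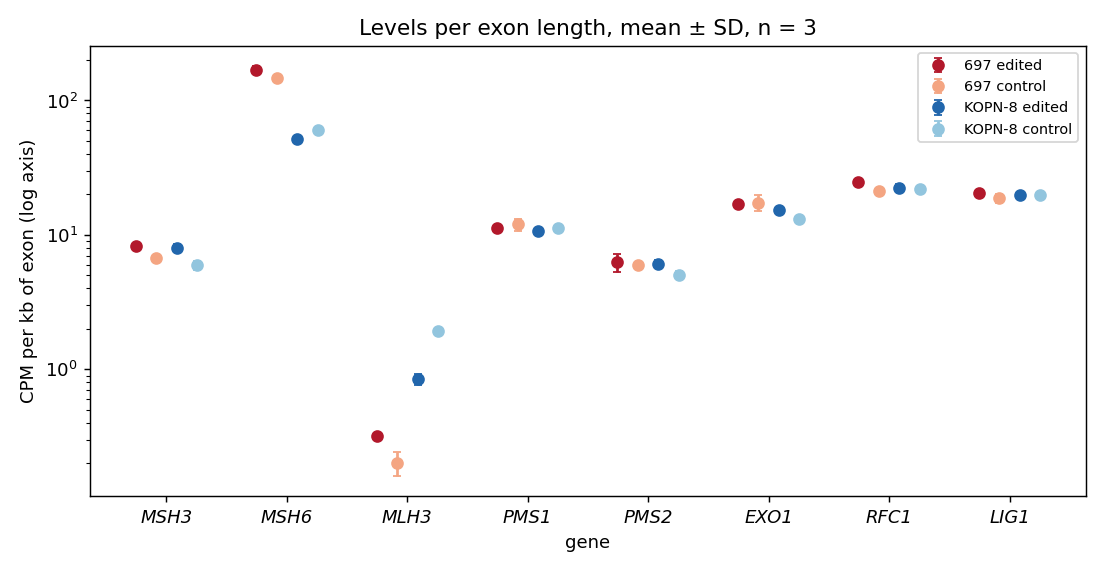
Levels of the 8 genes as CPM per kb of annotated exon on a log axis, mean ± SD of 3 libraries for each of the 4 groups. MSH6 stands above the other genes in every group and MLH3 below them, and these are also the genes whose groups lie farthest apart.

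MSH6 counts carry a limit of annotation. In GENCODE release 29 on GRCh38, MSH6 lies on chromosome 2 from 47695530 to 47810101, and 3 of its 15 transcripts start more than 1 kb before the first RefSeq start, the farthest 87.6 kb before it; 2 of these 3 are not classed as protein coding. Exons before that start make up 22.2% of the exon bases. The annotation behind the deposited counts is not given in the sources used here, and the part of such exons in the MSH6 counts was not tested. MSH6 also overlaps FBXO11 on the opposite strand, and 14.01% of the 50-base stretches of MSH6 transcripts occur in FBXO11 transcripts. FBXO11 had 1192 to 2099 counts per library, below the 7964 to 27470 counts of MSH6. Whether the counting used strand is not stated.

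The first comparison asked how the genes differed between the edited 697 clone and control 697. MSH3, MSH6 and RFC1 rose, each by less than 0.4 on the log2 scale, none of the 8 fell, and the other 5 did not pass the test. This is 37.5% of the genes, against 9.45% of all 15218 genes called in either direction and 4.85% called higher and 4.6% called lower; a call is an adjusted p under 0.05 in the quasi-likelihood test of edgeR, with the Benjamini-Hochberg adjustment over all genes tested. The median log2 fold change of the 8 genes was 0.18, beside 0 over all genes tested. Without edited replicate 2, MSH3, MSH6 and RFC1 all lost the call, as they did with the 697 libraries fitted alone (adjusted p = 0.0543, 0.179 and 0.0737). With the 697 libraries paired by replicate number, 4 of the 8 genes rose, beside 2319 of all genes called, and MSH3, MSH6 and RFC1 had edgeR adjusted p = 0.00464, 0.00782 and 0.00453. In bulk RNA, fewer cells with a transcript and less of it per cell cannot be told apart.

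MSH3, the MutS subunit for larger loops, had 38.5, 40.8 and 38.4 CPM in edited 697, against 33.5, 31.7 and 29.4 CPM in control 697. Every edited library was above every control library. The log2 fold change was 0.32 (SE 0.0863; edgeR adjusted p = 0.0196), and the adjusted p was 0.0899 without edited replicate 2 and 0.108 without control replicate 3. Other genes share 6.98% of the 50-base stretches of MSH3 transcripts.

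MSH6, the subunit with the histone-binding PWWP domain, had 1760, 1969 and 1868 CPM in edited 697, against 1601, 1662 and 1558 CPM in control 697. The groups did not overlap. The log2 fold change was 0.22 (SE 0.0682; edgeR adjusted p = 0.0477), just inside the threshold. With 1 library left out the adjusted p ran from 0.0404 to 0.187, and the call was kept in 2 of the 12 cases; it was 0.0503 with DESeq2 size factors. FBXO11, its neighbour on the other strand, rose in edited 697 as well (log2 fold change 0.21), and its part in the MSH6 value was not tested.

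RFC1, the large subunit of the clamp loader, had 161, 170.3 and 169.9 CPM in edited 697, against 138, 138 and 149.8 CPM in control 697. The lowest edited library was above the highest control. The log2 fold change was 0.23 (SE 0.0649; edgeR adjusted p = 0.0223). The adjusted p was 0.0766 and 0.0642 without edited replicate 2 or 3, and 0.0582 and 0.0756 without control replicate 1 or 2.

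MLH3 was the lowest of the 8 genes and, in 697, close to the limit of these libraries, with 35, 38 and 27 counts in edited 697 against 20, 30 and 26 counts in control 697. On the CPM scale these were 2.60, 2.80 and 2.63 CPM in edited 697 against 1.31, 1.81 and 1.96 CPM in control 697, without overlap. The log2 fold change of 0.67 (SE 0.215) did not pass the test (edgeR adjusted p = 0.0526). It passed with the libraries paired (0.67, edgeR adjusted p = 0.0459) and with limma on the normalized values (limma adjusted p = 0.0215). It did not pass without the filter (edgeR adjusted p = 0.107) or with the 697 libraries fitted alone (edgeR adjusted p = 0.158). Without pairing, 1438 of all genes were called in 697.

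PMS1, PMS2 and EXO1 overlapped between edited and control 697. PMS1, the other partner in a MutL dimer, had 63.2, 57.7 and 63.1 CPM in edited 697 against 71.4, 58.0 and 66.8 CPM in control 697. EXO1 had 67.3, 72.65 and 69.1 CPM in edited 697 against 63.2, 70.9 and 81.9 CPM in control 697, where the lowest and the highest library were both controls. PMS2, the endonuclease subunit of the main MutL dimer, had 21.4, 24.1 and 28.8 CPM in edited 697 against 24.7, 22.3 and 23.95 CPM in control 697, and the highest and the lowest library were both edited. Reads of PMS2 could be split with its near-identical copies, which hold 22.8% of its 50-base stretches. PMS1 had a log2 fold change of -0.09 (SE 0.0785), PMS2 0.06 (SE 0.107) and EXO1 -0.04 (SE 0.0826). LIG1, the ligase, had 136, 139 and 132 CPM in edited 697 against 112, 130.2 and 128 CPM in control 697. Its edited libraries all lay above the controls, yet the log2 fold change of 0.14 (SE 0.0687) did not pass (edgeR adjusted p = 0.241).

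**Figure D2:**
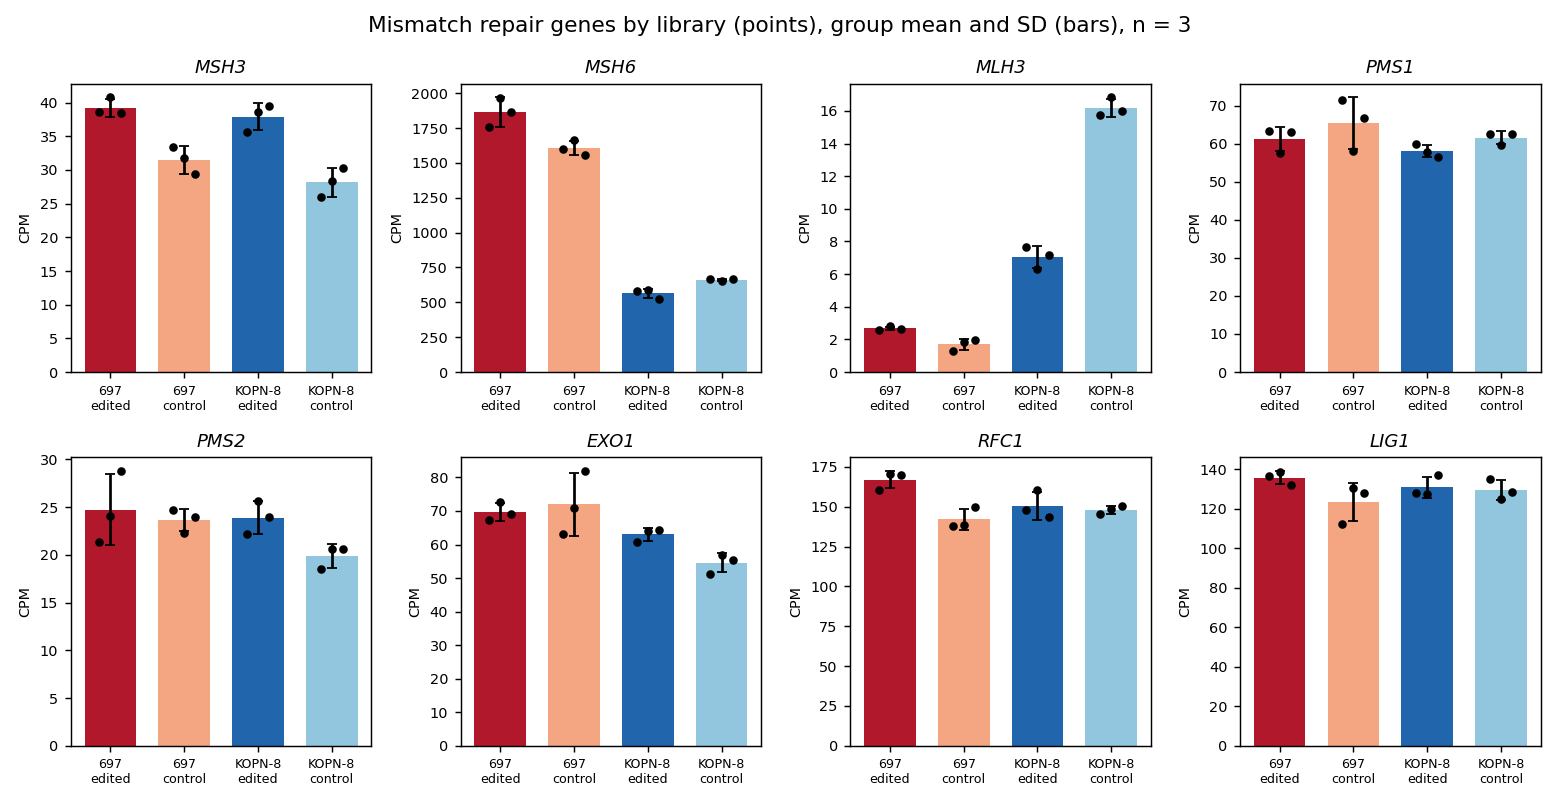
CPM of each of the 8 genes in the 12 libraries (points), with the group mean (bar) and SD (error bar, n = 3), edited left of control within each line; the vertical axis differs between panels. MSH3 is higher in both edited groups than in both control groups, MLH3 is lower in edited than in control KOPN-8, and PMS1 overlaps between neighbouring groups.

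The second comparison asked the same of the edited KOPN-8 clone. MSH3 rose and MSH6 and MLH3 fell, so that again 37.5% of the 8 genes were called, but against a background of 28.7% of all genes called in this line, 11.5% higher and 17.2% lower. The share is therefore near that of all genes. The median log2 fold change was 0.02, beside 0 over all genes.

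MLH3 had 7.68, 6.32 and 7.15 CPM in edited KOPN-8, against 15.7, 16.8 and 15.98 CPM in control KOPN-8. All edited libraries were below all controls. The level was 0.438 times that of the control, a log2 fold change of -1.19 (SE 0.133; edgeR adjusted p = 1.6e-07). It stayed between -1.26 and -1.12 with any 1 library left out, with adjusted p up to 5.44e-06. The 10 nearest tested coding genes, 5 on each side on chromosome 14, had a median log2 fold change of -0.14. Their values ran from -1.15 to 0.10, with 2 called lower and 0 higher. That set was chosen after values were seen.

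MSH3 had 35.6, 38.6 and 39.6 CPM in edited KOPN-8 against 25.97, 28.3 and 30.2 CPM in control KOPN-8. The groups did not overlap. The log2 fold change was 0.43 (SE 0.0851; edgeR adjusted p = 0.000423), and the call was kept with any 1 library left out, at adjusted p up to 0.00585. None of the other 7 genes was called higher in both edited clones.

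MSH6 had 580, 585 and 526 CPM in edited KOPN-8 against 664, 652 and 665 CPM in control KOPN-8. All edited libraries were below all controls. Its change was -0.23 on the log2 scale (SE 0.0686; edgeR adjusted p = 0.0138), with an adjusted p of 0.0887 without edited replicate 3. FBXO11 did not pass the test there (log2 fold change 0.04).

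PMS2 and EXO1 had higher levels in every edited library without passing the test. PMS2 had 22.15, 25.6 and 23.9 CPM in edited KOPN-8 against 18.5, 20.6 and 20.6 CPM in control KOPN-8, with no overlap (log2 fold change 0.26, SE 0.106; edgeR adjusted p = 0.0726). EXO1 had 60.7, 64.0 and 64.3 CPM in edited KOPN-8 against 51.3, 57.0 and 55.4 CPM in control KOPN-8, also without overlap (log2 fold change 0.20, SE 0.0825; edgeR adjusted p = 0.0676). Both passed when the KOPN-8 libraries were fitted alone, at adjusted p = 0.0264 for PMS2 and 0.0118 for EXO1. RFC1 had 148, 161 and 143 CPM in edited KOPN-8 against 145, 149 and 150.3 CPM in control KOPN-8, and LIG1 had 128, 127 and 137 CPM in edited KOPN-8 against 135, 125 and 128 CPM in control KOPN-8. Both genes overlapped between the groups, and so did PMS1, at 58.1 ± 1.64 CPM in edited KOPN-8 and 61.6 ± 1.71 CPM in control KOPN-8 (SD, n = 3). PMS1, RFC1 and LIG1 had log2 fold changes of -0.08, 0.02 and 0.02, each with an SE under 0.08.

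**Figure D3:**
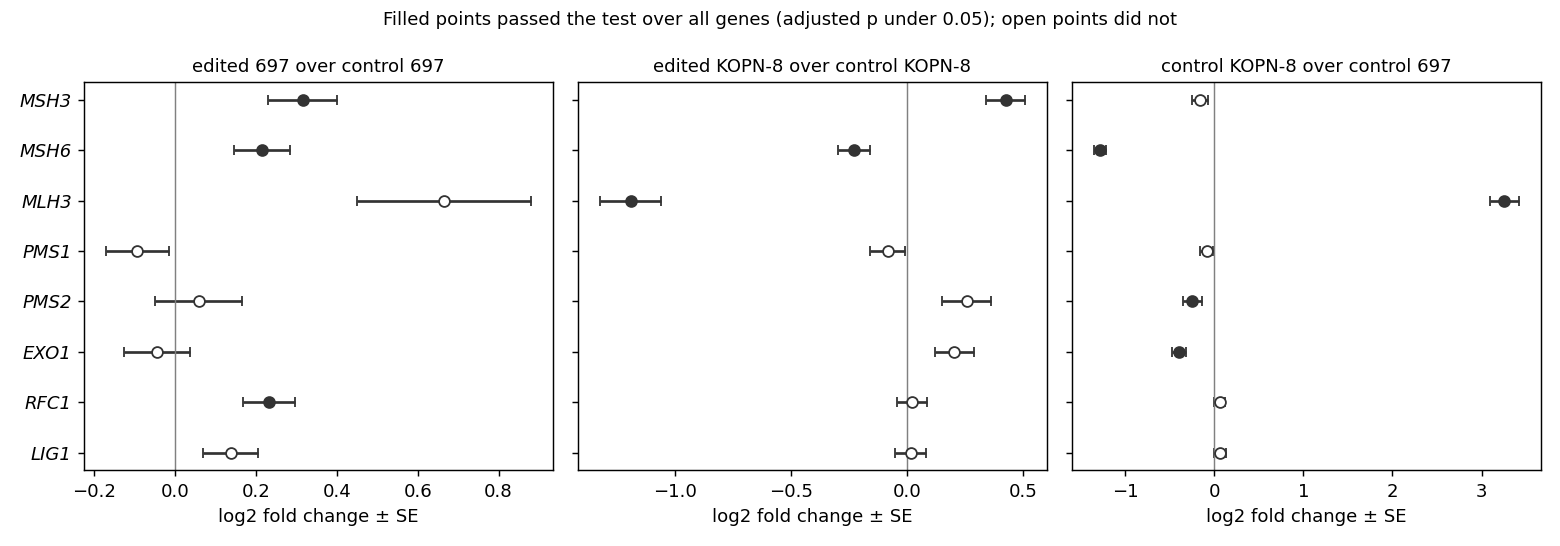
Log2 fold change ± SE of the 8 genes in edited over control 697, edited over control KOPN-8 and control KOPN-8 over control 697; filled points passed the test over all genes and the horizontal scale differs between panels. MSH3 is filled on the right of 0 in both edits, MSH6 lies on opposite sides of 0, and MLH3 lies farthest from 0 in each panel.

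The edit changes of MSH6 and MLH3 differed between the lines. The KOPN-8 change minus the 697 change was -0.44 for MSH6 (SE 0.0967; edgeR adjusted p = 0.00155) and -1.86 for MLH3 (SE 0.253; edgeR adjusted p = 6.05e-06). These 2 of 8 genes, or 25% of them, compare with 19.5% of all genes called in this contrast, 7.46% higher and 12.1% lower. For MSH3 the difference was 0.11 (SE 0.121; edgeR adjusted p = 0.601), for EXO1 0.25 (SE 0.117) and for RFC1 -0.21 (SE 0.0914), none of which passed.

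Ratios within a library do not depend on library scaling. The ratio of MSH3 to MSH6 counts, which sets the genes of the 2 MutS forms against each other, was 0.0614, 0.0659 and 0.0752 in edited KOPN-8 against 0.0391, 0.0434 and 0.0454 in control KOPN-8. The edited libraries were all higher, by 0.66 on the log2 scale. In 697 the ratio was 0.0219, 0.0207 and 0.0206 in edited libraries against 0.0209, 0.0191 and 0.0189 in controls, which overlapped. The ratio of MLH3 to PMS2 counts averaged 0.298 ± 0.0499 in edited KOPN-8 and 0.815 ± 0.0390 in control KOPN-8 (SD, n = 3), a log2 difference of -1.47. It averaged 0.110 ± 0.0162 in edited 697 and 0.0720 ± 0.0164 in control 697, a log2 difference of 0.63. With 3 against 3 libraries the smallest two-sided p of an exact permutation test is 0.1, which the non-overlapping ratios reached (0.12 adjusted over 6 ratio comparisons), so that no ratio could pass a threshold of 0.05. A ratio of mRNAs is not a ratio of protein complexes.

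**Figure D4:**
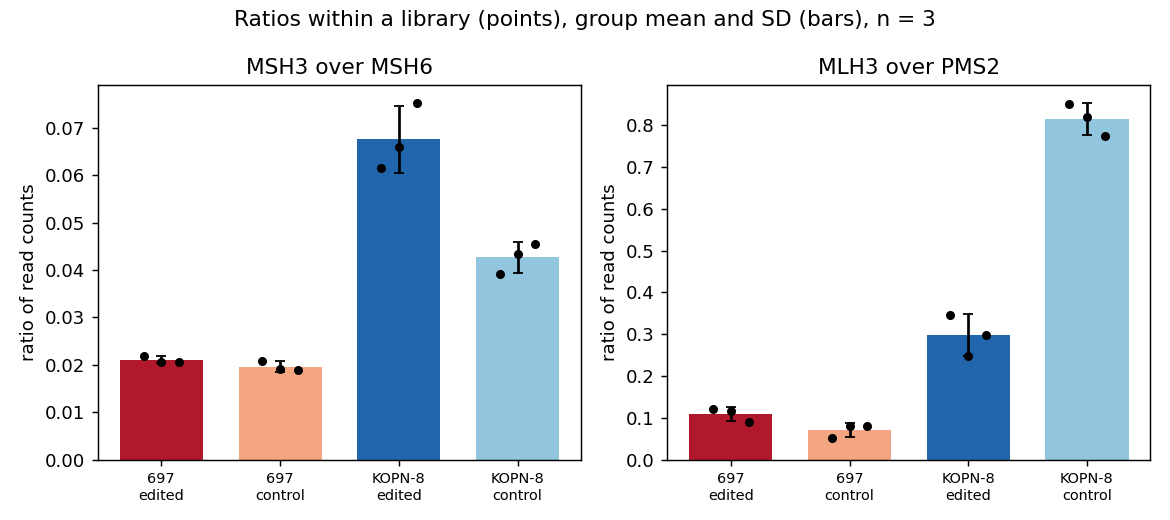
Ratio of read counts of MSH3 to MSH6 and of MLH3 to PMS2 in each library (points), with group mean (bar) and SD (error bar, n = 3), edited left of control. Edited KOPN-8 lies above its control for MSH3 over MSH6 and below it for MLH3 over PMS2, while for MLH3 over PMS2 edited 697 lies above control 697.

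The genes also differed between control KOPN-8 and control 697, where 73.3% of all genes were called, 36.6% higher and 36.7% lower. Of the 8 genes, 1 was higher and 3 were lower in control KOPN-8, or 50% in all. MLH3 averaged 16.2 ± 0.579 CPM in control KOPN-8 and 1.69 ± 0.342 CPM in control 697 (SD, n = 3), 9.55 times as high (log2 fold change 3.26, SE 0.166; edgeR adjusted p = 8.16e-15). MSH6 averaged 660.4 ± 6.84 CPM in control KOPN-8 and 1607 ± 52.3 CPM in control 697 (log2 fold change -1.28, SE 0.0694; edgeR adjusted p = 2.5e-14). EXO1 was lower in control KOPN-8, at 54.6 ± 2.93 CPM against 71.99 ± 9.38 CPM in control 697 (log2 fold change -0.40), and so was PMS2, at 19.9 ± 1.23 CPM against 23.6 ± 1.19 CPM (log2 fold change -0.24), by a call that was lost without the filter (adjusted p = 0.0765) and without control 697 replicate 1 or 3 or any 1 control KOPN-8 library (adjusted p from 0.0599 to 0.162). MSH3, PMS1, RFC1 and LIG1 did not pass the test, though MSH3 and PMS1 were called lower with upper-quartile scaling. The 10 nearest tested coding genes around MLH3 had a median log2 fold change of 0.14 in this contrast (-0.16 to 1.48), with 4 called higher and 0 lower. Those around MSH6 had a median of -0.15 (-1.02 to 0.10), with 0 called higher and 6 lower. The median was -0.63 around EXO1 (-6.50 to 2.39), with 1 called higher and 8 lower. Around PMS2, itself lower, it was 0.29 (-0.73 to 1.49), with 5 called higher and 1 lower. These sets were chosen after values were seen.

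Ordered by mean CPM over the 4 groups, MSH3 was highest in edited 697, then edited KOPN-8, control 697 and control KOPN-8. Its edited groups overlapped each other, as did its control groups, while edited KOPN-8 and control 697 did not. MSH6 ran from edited 697 to control 697, control KOPN-8 and edited KOPN-8, and MLH3 from control KOPN-8 to edited KOPN-8, edited 697 and control 697; for both genes no neighbouring groups overlapped. For PMS1 and LIG1 all neighbouring groups overlapped. Among neighbouring groups, EXO1 overlapped between control and edited 697 only. Control 697 (lowest library 63.2 CPM) also overlapped edited KOPN-8 (highest library 64.3 CPM) for EXO1. RFC1 overlapped between edited KOPN-8, control KOPN-8 and control 697. PMS2 overlapped between all neighbours but control 697 and control KOPN-8. The share of all genes with groups that do not overlap was not counted, and 73.3% of all genes were called between the control groups. The orders are therefore a description and no trait particular to these genes.

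The other genes of the pathway, a list of 16 that holds the sliding clamp, the smaller loader subunits, the single-strand binding protein RPA, DNA polymerase delta and further repair factors, moved little in 697. There 1 of 16 rose and 0 fell, or 6.25% against 9.45% of all genes, with a median log2 fold change of 0.05. In edited KOPN-8, 5 rose and 1 fell, or 37.5% against 28.7% of all genes, with a median of 0.11. The loader subunit RFC5 rose, at 120.5 ± 7.41 CPM in edited KOPN-8 against 84.9 ± 6.01 CPM in control KOPN-8 (log2 fold change 0.50, SE 0.0715; edgeR adjusted p = 5.74e-06). POLD1, the catalytic subunit of polymerase delta (0.28), and the RPA subunit RPA2 (0.22) rose too, while the loader subunit RFC2 fell (-0.23). RPA3 (0.23) and the clamp gene PCNA (0.19), which also rose, are named after their values were seen. The count fell to 2 called genes without edited replicate 1, edited replicate 2, control replicate 2 or control replicate 3. In control KOPN-8 over control 697, 10 of the 16 were higher and 4 lower, or 87.5% against 73.3% of all genes. By direction, 36.6% of all genes were higher and 36.7% lower. POLD4 (1.96), RFC2 (0.67), RPA1 (0.64) and RPA2 (0.59) were among the higher ones.

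Several of these genes are transcribed mainly around S phase, so S-phase and G2/M genes were measured beside them. Of 26 S-phase genes, 1 rose and 1 fell in edited 697, or 7.69% against 9.45% of all genes: PRIM1, the primase subunit (log2 fold change 0.42), and cyclin E1, CCNE1 (-0.67). The median was 0.00013, and the summed level was 4479 to 4936 CPM in edited 697 against 4443 to 5089 CPM in control 697. In edited KOPN-8, 11 rose and 3 fell, or 53.8% against 28.7% of all genes, with a median of 0.19, among them the replication factor GINS3 (0.77), UHRF1 (0.70), which recruits maintenance DNA methylation, and the helicase subunits MCM5 (0.52) and MCM4 (-0.60). Their summed level was 6155 to 6616 CPM in edited KOPN-8 against 5868 to 6249 CPM in control KOPN-8. Of 10 G2/M genes, 1 passed the test in each line, or 10% against 9.45% of all genes in 697 and 28.7% in KOPN-8. They are named after values were seen: the spindle checkpoint kinase gene TTK rose in edited 697 (0.38), and the mitotic kinase gene PLK1 fell in edited KOPN-8 (-0.54). All 10 G2/M genes had log2 fold changes above 0 in edited 697 (0.014 to 0.38, median 0.10). Their summed level was 2451 to 2611 CPM in edited 697 against 2060 to 2451 CPM in control 697. In KOPN-8 their median was -0.03, with 3827 to 4135 CPM in edited cells against 3992 to 4325 CPM in controls. In control KOPN-8 over control 697, 17 of the 26 S-phase genes were higher and 2 lower, or 73.1% against 73.3% of all genes. Their median was 0.24, with RRM2 (1.65), CCNA2 (1.16) and CCNE2 (1.06) among the higher ones and UHRF1 (-0.85) lower. All 10 G2/M genes were higher in control KOPN-8, with a median of 0.59. By direction, 36.6% of all genes were higher and 36.7% lower. The part of cell cycle in the repair genes' values was not tested.

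**Figure D5:**
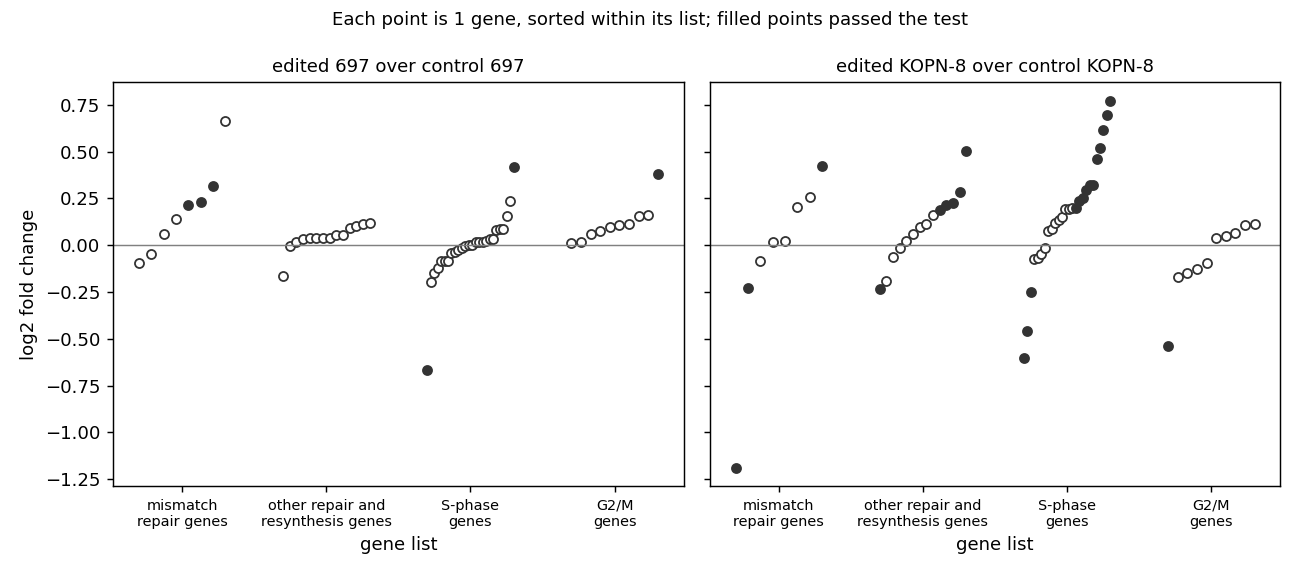
Log2 fold change of each gene in edited over control 697 and in edited over control KOPN-8, for the 8 mismatch repair genes, 14 of the 16 other repair and resynthesis genes, 26 S-phase genes and 10 G2/M genes; filled points passed the test. In 697, 3 of the filled points are MSH3, MSH6 and RFC1, and in KOPN-8 filled points are found in all 4 lists, with MLH3 the lowest point.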

How the data were processed

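Per the labels, poly-A-selected stranded libraries were made from 2 human leukaemia lines. Trimmomatic, STAR and DESeq2 were used with hg19, per the submitters' processing notes; neither the counter, nor the annotation, nor versions are given in the sources used here. Whole-number read counts by gene symbol were deposited for all libraries. The authors also deposited a normalized signal, equal to these counts over 1 factor per library (largest deviation 1.14e-05); it served for 1 alternative.

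Raw counts of all 12 libraries entered 1 fit of edgeR 4.0.16 (under R 4.3.3), using filterByExpr, TMM scaling, 1 mean per group and a robust quasi-likelihood F test. The Benjamini-Hochberg adjustment covered 15218 genes, with calls at an adjusted p under 0.05. Alternatives used DESeq2 1.42.0 and limma 3.58.1, which was run on log2 of the normalized values plus 1. Totals were 10378769 to 14350925 counts in edited 697, 13432744 to 17163305 in control 697, 13239627 to 18278662 in edited KOPN-8 and 13208436 to 17959678 in control KOPN-8. Replicates are labelled biological, with nothing said of separate cultures, so p-values measure the spread between these libraries, which may be technical. Replicates differed by more than sampling noise (chi-square per degree of freedom 2.92 to 10.8). 

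The genes, the lists and the tests were chosen with earlier results of these data known. The text names the 8 genes, SETD2, up to 4 called genes with the smallest p from each of the lists of other repair and S-phase genes, copies of PMS2 with at least 1 CPM, and for each of the 8 genes the 2 most alike in pattern. Named outside this rule, after values were seen, are FBXO11, CD7, CD3D, TTK, PLK1, RPA3 and PCNA. Results on some genes are not reported here. Exon lengths, overlaps and 50-base matches come from GENCODE release 29 on GRCh38, another build than the submitters name, and promoters from RefSeq. Same-numbered 697 libraries deviated together only weakly (r = 0.105, 0.207 and 0.104), and libraries of different numbers were not compared. The 697 values come from the fit without pairs unless another fit is named. The paired fit rests on the replicate numbers and on this weak evidence. Same-numbered KOPN-8 libraries had lower values (r = 0.0508, 0.0362 and 0.0743) and were not taken as pairs. The test was first run on simulated counts, drawn separately for each library and without deviations shared by same-numbered libraries. Its outcome is not used here.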

Additional observations from a re-analysis of the deposited data

Results flagged for a closer look

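The change between edited and control cells differed between the lines by the test of the difference itself for 2 of the 8 mismatch repair genes, given as the KOPN-8 change minus the 697 change on the log2 scale. It was -1.86 for MLH3 (0.67 in 697 and -1.19 in KOPN-8) and -0.44 for MSH6 (0.22 in 697 and -0.23 in KOPN-8).

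The same difference was found for SETD2, at -0.54 (edgeR adjusted p = 0.000225). Among other named genes it was found for RFC5, at 0.40 (edgeR adjusted p = 0.00577), MCM4, at -0.48 (adjusted p = 0.000809), and UHRF1, at 0.78 (adjusted p = 1.41e-06). It was also found for CCNE1, at 1.28 (edgeR adjusted p = 0.00026), CHAF1B, a chromatin assembly gene, at 0.54 (adjusted p = 0.0017), and MCM5, at 0.55 (adjusted p = 0.00186). PRIM1, at -0.49 (edgeR adjusted p = 0.00188), GINS3, at 0.53 (adjusted p = 0.00478), and PLK1, at -0.64 (adjusted p = 6.56e-05), had it too. The list genes are named because they were called in some contrast, CHAF1B in this one alone, so this is a description. In this contrast 6.25% of the 16 other repair genes, 34.6% of the 26 S-phase genes and 10% of the 10 G2/M genes were called, against 19.5% of all genes.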

How the results depend on the processing

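Of the recomputed log2 fold changes of the 8 genes, 538 kept their direction and side of the threshold, 28 lost the call, 15 gained it and 11 changed sign; every sign change was of a value that did not pass the test. With the replicate block, 2319 genes were called in 697 (main count 1438), among them 4 of the 8 (main count 3). In KOPN-8, 5348 genes were called (main count 4370), among them 5 of the 8 (main count 3). For the KOPN-8 change minus the 697 change, 5 of the 16 other pathway genes were called (main count 1, and 2 without the filter). KOPN-8 numbers are not taken as pairs. With only the libraries compared in the fit, 0 of the 8 genes were called in 697 (main count 3), beside 982 of all genes, and 5 in KOPN-8, beside 5282 of all genes. With single libraries left out, the number of the 8 genes called in 697 ran from 0 to 3. That of the other pathway genes ran from 1 to 2 in 697 and 2 to 7 in KOPN-8. For the KOPN-8 change minus the 697 change it ran from 1 to 3. The cause was not tested, beyond fewer libraries in these fits. With upper-quartile scaling, control KOPN-8 over control 697 changed sign for RFC1 (-0.0301) and LIG1 (-0.0222), and MSH3 (-0.25) and PMS1 (-0.18) were called lower. With single libraries left out, the sign changed for EXO1 in 697 (-0.129 to 0.0505) and PMS2 in 697 (-0.0563 to 0.155). It also changed for RFC1 in KOPN-8 (-0.0230 to 0.0576) and LIG1 in KOPN-8 (-0.0177 to 0.0469). For PMS1 it changed in the KOPN-8 change minus the 697 change (-0.0585 to 0.0916). No block could be fitted to the controls of different lines. Depth limits MLH3 in 697, with 20 to 38 counts per library.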

Other observations

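PMS2 has near-identical copies in the genome, and 22.8% of the 50-base stretches of its transcripts occur in PMS2CL or numbered PMS2 pseudogenes, so that its counts are uncertain where reads could be split. The copies PMS2CL, PMS2P1, PMS2P3, PMS2P4 and PMS2P5 reached 1 CPM, and none of these 5 passed the test in either edited clone. PMS2CL averaged 9.22 ± 0.587 CPM in control KOPN-8 and 17.2 ± 0.525 CPM in control 697 (SD, n = 3), lower in control KOPN-8 by a log2 fold change of -0.89 (SE 0.121; edgeR adjusted p = 4.89e-07), next to -0.24 for PMS2. EXO1 shared 0% of its 50-base stretches with other genes and MLH3 0.124%, against 6.98% for MSH3.

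The genes most alike in pattern, by the root mean square difference of centred log2 CPM over the 12 libraries among 11598 genes, were ADPGK (0.0844) and EIF2AK3 (0.102) for MSH3, and RPL5 (0.0762) and PPA1 (0.0814) for MSH6. For MLH3 they were SLFN13 (0.213) and COTL1 (0.219), for PMS2 ZRANB3 (0.0798) and TET3 (0.0866), and for EXO1 NONO (0.0678) and the DNA polymerase epsilon gene POLE (0.0687). PMS1 was closest to NUTM2A-AS1 (0.0348) and GART (0.0470), RFC1 to MED10 (0.0517) and ZC3H13 (0.0589), and LIG1 to TOM1L2 (0.0503) and APH1A (0.0592). PMS1, RFC1 and LIG1 varied little themselves (SD of log2 CPM 0.0978, 0.103 and 0.0815), where a small difference says little. The 12 libraries differ in line and in depth, and the part of these differences in the likeness was not tested.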
